A study of Mus musculus with 6 samples.

Results

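The 335 cells described here are proximal tubule cells of the mouse kidney that the depositors' annotation places in the class Proximal s1/s2 and, at its finer level of 22 clusters, in a cluster named Proximal sub2. They were chosen as the cells of that class whose cluster name begins with "Proximal sub", and they turned out to be the whole of that cluster, 335 of 335 cells. They make up 335 of 2966 cells of the class and 335 of 22154 cells in the data. The other 2631 cells of the class serve as the comparison, of which 2308 lie in the main cluster of the class, 316 in a cluster named Prox sub3 and 7 in a thin limb cluster. C57BL/6J mice (strain C57BL/6 in the labels) of 16 weeks ate a gel diet holding 104 µmol sodium per kcal for 1 week, with furosemide, a loop diuretic, at 70 mg per kg body weight, or with vehicle alone. Both groups were wild-type animals on that same diet, and the drug is the only difference between them that the labels give. Dissociated kidney cells were captured on BD Rhapsody beads, and counts of 456 panel genes were available for each cell. Libraries 1, 3 and 5 carry the vehicle treatment (written "ctrl" in the annotation and read here as vehicle) and libraries 2, 4 and 6 carry furosemide, so each treatment has 3 libraries. Values listed by library below follow that order within each treatment.

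The proximal tubule reabsorbs most of the filtered glucose, amino acids, phosphate and bicarbonate, and it is divided into an early part, S1 and S2, and a late part, S3. Slc5a2 encodes the high-capacity sodium-glucose cotransporter SGLT2 of the early part. The organic anion transporters encoded by Slc22a6 and Slc22a8 sit on the blood side of proximal cells and carry anionic drugs, furosemide among them, from blood into the cell, from which they pass to the tubular fluid. Immediate early genes such as Fos, Jun, Egr1 and Atf3 encode transcription factors that are switched on within minutes of a stimulus, and the enzymatic release of cells from tissue is a known stimulus.

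Library by library, Proximal sub2 held 63, 50 and 61 cells under vehicle and 43, 24 and 94 cells under furosemide, and the counts summed over these cells ran from 16586 in library 4 to 68075 in library 6. A cell of the cluster had a median of 725 counts (251 to 5845) and 89 genes, against 818 counts and 94 genes in the other cells of the class. Of the 335 cells, 11 carry a cell number that also occurs in another library, as do 392 of all 22154 cells, and leaving these out left 0 genes called for the treatment. No doublet call was left in the depositors' annotation, and the name of the deposited table refers to removed doublets. No further doublet caller was run here. Defining genes of the glomerulus (Nphs1), of lymphocytes (Cd4) and of principal cells (Aqp2) had no count in the cluster, which allows up to 10.03 CPM each (3 counts of 299215, counting error only). CPM here means counts scaled to a total of 1e6 panel counts. The summed level of 6 listed macrophage and dendritic genes, of which Cd68 and Ccr2 were at 0, was 0 to 46.1 CPM under vehicle and 25.5 to 121 CPM under furosemide, against 21.0 to 588 CPM in the other cells of the class. That of 10 thick limb genes, of which Casr was at 0, was 5898 to 7762 CPM under vehicle and 4583 to 7258 CPM under furosemide, against 4781 to 6816 CPM in the rest of the class. Cldn10 alone gave a mean of 5004 CPM in the cluster and 4560 CPM in the rest. For 7 principal cell genes, of which Aqp2, Scnn1a and Kcne1 were at 0, the sum was 384 to 529.9 CPM under vehicle and 353 to 789 CPM under furosemide, against 522 to 774 CPM in the rest, and Fxyd4 alone gave a mean of 418 CPM in the cluster.

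Slc5a2 marked these cells as it marked the rest of the class. Its level in Proximal sub2 was 34718, 25949 and 33410.1 CPM in the vehicle libraries and 28981, 28156 and 22916 CPM in the furosemide libraries, a mean of 29022 ± 4454 CPM (SD, n = 6 libraries), and every one of the cells had at least 1 count of it. The other cells of the class had more, 36439 ± 4121 CPM, and the log2 ratio was -0.33 ± 0.14 with the same sign in 6 of 6 libraries. Gatm, which encodes the first enzyme of creatine synthesis, was a weak marker in this panel, at 398 ± 153 CPM in Proximal sub2 and 487 ± 76.5 CPM in the main cluster, with values from 176 to 581 CPM over the 6 libraries. Because the clusters were drawn from these same genes, every difference in level between Proximal sub2 and the rest of the class is given as a description, with no test.

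A combination of early-segment and late-segment genes set the cluster apart from the rest of its class. Of 153 genes with a mean of at least 300 CPM in either group of cells, 28 (18.3%) were higher in Proximal sub2 than in the rest of the class in 6 of 6 libraries and 38 (24.8%) were lower in 6 of 6, with a median log2 ratio of -0.03 over all 153. Ratios are of the level plus 50 CPM, within each library. Among these, 15 were at least 2-fold higher and 20 at least 2-fold lower. Some of them reached 300 CPM only in the group where they were higher, and so entered through that level. These were Slc5a10, Slc22a2 and Lpl among the higher genes. Among the lower genes they were Cryab, Cxcl1, Socs3, Icam1, Krt18, Adamts1 and Trf. Of 10 listed S1 and S2 genes on the panel, 2 were higher and 4 lower in 6 of 6 libraries, with a median log2 ratio of -0.20. Of 9 listed S3 genes, 4 reached 300 CPM and all 4 were higher, with a median of 1.40, and the level summed over the 9 was 78414 to 99753 CPM in Proximal sub2 against 30223 to 40295 CPM in the other cells.

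Transporters of organic anions and cations were among the genes highest in the cluster. Slc22a6, the organic anion transporter OAT1, stood at 5248, 6771 and 6214 CPM in the vehicle libraries and 5908, 5848 and 4363 CPM in the furosemide libraries. The other cells of the class had 935 to 1523 CPM in the same 6 libraries, so the lowest library of Proximal sub2 lay above the highest of the rest, and the log2 ratio was 2.06 ± 0.14 (SD). Slc22a8, the related transporter OAT3, was already abundant in the class and was higher in the cluster by a smaller and even step, 16358 ± 2985 CPM against 11824 ± 1677 CPM, a log2 ratio of 0.46 ± 0.07. Slc22a2, the organic cation transporter OCT2, was at 376 CPM against 159.5 CPM, a log2 ratio of 1.03 ± 0.20. Slc13a3, which brings in the dicarboxylates that organic anion transporters exchange, was at 5009, 6234 and 6252 CPM in the vehicle libraries and 5424, 8561 and 7815 CPM in the furosemide libraries, and the other cells had 2222 to 3046 CPM. Slc22a2 reached 300 CPM in Proximal sub2 alone, so it entered the set of described genes through its high level there. Slc6a19, the brush border carrier of neutral amino acids and a gene of the same transport list, was lower at 10057 CPM against 14322 CPM.

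Several enzymes of drug and fatty acid metabolism were among the higher genes. Cyp4b1, a cytochrome P450 that oxidises fatty acids and foreign compounds, reached 37180.1, 41580.3 and 39779 CPM in the vehicle libraries and 45559.9, 44134 and 33213 CPM in the furosemide libraries. It was the most abundant of the listed S3 genes in the cluster, and the other cells of the class had 11309.6 to 18300.3 CPM. Cyp2e1, the ethanol-oxidising P450, was at 14496, 15662 and 9833 CPM in the vehicle libraries and 11995, 10309.9 and 15086 CPM in the furosemide libraries, and the other cells had 2085 to 4238 CPM. The libraries of the cluster did not overlap those of the rest for either gene, and the log2 ratios were 1.48 ± 0.23 and 1.97 ± 0.19. Inmt, a methyltransferase of small amines, had a log2 ratio of 1.52 ± 0.23 at 11177 CPM, and Lpl, lipoprotein lipase, one of 1.68 ± 0.19 at 938 CPM. Acy3, an aminoacylase that acts on mercapturic acids, had 1.32 ± 0.20 at 19932 CPM, Adh1, alcohol dehydrogenase, 1.04 ± 0.19 at 6240.0 CPM, and Slc27a2, which activates and takes up long-chain fatty acids, 1.02 ± 0.11 at 17729.7 CPM. Lpl reached 300 CPM in Proximal sub2 alone, at 263 CPM in the other cells. Not all such enzymes differed in 1 direction: Cyp2d9, Cyp2a4, Ugt3a2 and Acsm2 had mixed signs over the libraries, with mean log2 ratios of 0.40, 0.13, 0.58 and 0.28, and so did Glyat, a glycine conjugating enzyme, with -0.08.

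Aqp1, the water channel of the proximal tubule and thin descending limb, showed the most even difference of the strongly higher genes. It was at 3624, 3946 and 5168 CPM in the vehicle libraries and 4304, 3919 and 4407 CPM in the furosemide libraries, against 1452 to 2087 CPM in the other cells, with a log2 ratio of 1.29 ± 0.08. Mep1a, a metalloprotease subunit of the brush border, was at 4392 CPM against 1822 CPM. Napsa, an aspartic protease of lysosomes, was at 2296 CPM against 632 CPM on average, but library 6 had 588 CPM and library 4 4220.4 CPM. Smaller positive ratios in 6 of 6 libraries, 0.10 to 0.52, belonged to 13 further genes, among them Igf1r, the receptor of insulin-like growth factor 1 (566 CPM against 381 CPM), and Kl, the co-receptor of the phosphate-lowering hormone FGF23 (5116 CPM against 4286 CPM).

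A pair of genes among the 15 highest rested on few cells or few libraries. Kap, the androgen-regulated kidney protein that dominates late proximal cells, took 4.49%, 4.67% and 1.5% of the counts of the cluster under vehicle and 0.542%, 0.953% and 0.918% under furosemide. The median cell had only 1.5 to 3 counts of Kap, and the single cell with most Kap held between 19.2% (library 6) and 52.0% (library 3, 1583 of 3043 counts) of its library's Kap counts in the cluster. Kap made up 0.211% to 0.281% of counts in the main cluster, 0.163% to 0.227% in thick ascending limb cells, a tubule segment that should lack it, and 42.0% to 46.7% in the Proximal s2/s3 class. Slc5a10, a sodium-dependent carrier of mannose and fructose, was at 2218 CPM in library 6, where 34 of 94 cells had a count, and at 25.5 to 422 CPM in the other libraries, where 1 to 6 cells had one. Its log2 ratio was 1.52 ± 1.08 over 6 libraries and 1.15 without library 6. Slc5a10 was also highest in library 6 in the other cells of the class. There it was at 192 CPM scaled by TMM factors, against 8.87 to 75.2 in the other libraries.

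**Figure D1:**
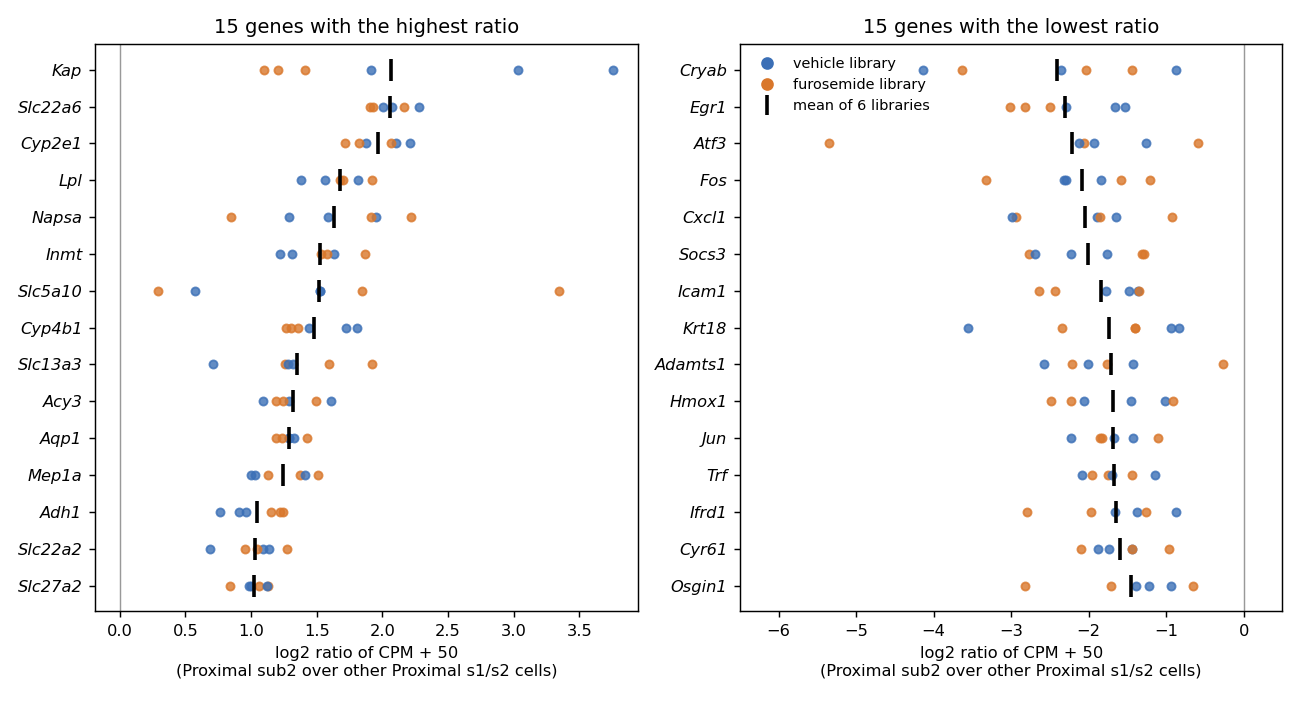
Log2 ratio of the level plus 50 CPM in Proximal sub2 over that in the other Proximal s1/s2 cells, for the 15 genes with the highest (left) and the 15 with the lowest (right) mean ratio, genes as rows. Each point is 1 library, blue for vehicle and orange for furosemide, and the black bar is the mean of 6 libraries. Slc22a6 (mean 2.06) and Aqp1 (mean 1.29) have points close together, while those of Kap, Slc5a10, Atf3 and Cryab are widely spread.

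Immediate early and stress genes were the lowest relative to the rest of the class. Fos was at 4239, 3132 and 3078 CPM in the vehicle libraries and 1528, 5909 and 6610.4 CPM in the furosemide libraries. The other cells of the class had 15240.4 to 17727 CPM, so no library of the cluster reached the lowest of the rest, and the log2 ratio was -2.09 ± 0.74. Library 2 was the lowest in the cluster and library 6 the highest. Jun, its partner in the AP-1 factor, was at 1018 ± 276 CPM against 3294 ± 356 CPM. Egr1 was at 513, 445 and 309.7 CPM in the vehicle libraries and 153, 241 and 249.7 CPM in the furosemide libraries, against 1522 to 2015 CPM in the other cells. Atf3 had 667, 369 and 194 CPM in the vehicle libraries and 382, 0 and 793 CPM in the furosemide libraries, and its ratio of -2.22 ± 1.64 depended on library 4, where no count was seen, and was -1.59 without it. The heat shock genes Hspa1a and Dnajb1 had log2 ratios of -1.16 ± 0.78 and -0.55 ± 0.30. Of 20 listed genes of this kind, 6 were on the panel. All 6 were lower in 6 of 6 libraries, where 24.8% of all 153 genes were, with a median log2 ratio of -1.89. Their summed level was 3896 to 9460.1 CPM in the cluster against 21989 to 26770.5 CPM in the other cells.

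Cxcl1, Icam1, Socs3, Hmox1 and Spp1 were also lower in 6 of 6 libraries. Cxcl1, a chemokine that attracts neutrophils, was at 260.0 ± 168 CPM against 1083 ± 388 CPM. Icam1, an adhesion molecule for leukocytes, was at 230.4 ± 59.0 CPM against 979 ± 317 CPM, and Socs3, an inhibitor of cytokine signalling, at 191 ± 168 CPM against 784 ± 262 CPM. Cxcl10, a chemokine of the interferon response, did not keep 1 sign, with a log2 ratio of 0.05 in library 1 and a mean of -2.27 ± 1.63. Hmox1, heme oxygenase, was at 974, 384 and 426 CPM in the vehicle libraries and 713, 724 and 955 CPM in the furosemide libraries, against 1136 to 4239.6 CPM in the other cells. Osgin1, a gene of the oxidative stress response, had a log2 ratio of -1.46 ± 0.76, Cyr61, a matricellular protein, -1.59 ± 0.40, Adamts1, a secreted protease, -1.71 ± 0.81, and Ifrd1, a stress-responsive transcription regulator, -1.65 ± 0.67. Trf, transferrin, was at 119 CPM against 485 CPM. Spp1, osteopontin, the most abundant of the listed injury genes, was at 8805 ± 1729 CPM against 19631 ± 3146 CPM. Timp3, an inhibitor of metalloproteases from the same list, had a mixed sign over the libraries, with a log2 ratio of 0.08 ± 0.34. Havcr1, the injury marker KIM-1, had no count in the cluster and 0 to 9.98 CPM in the main cluster.

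The ratios of Cryab, a small heat shock protein, and Krt18, a keratin of simple epithelia, rested in part on the 7 thin limb cluster cells in the comparison group. Against all other cells of the class Cryab was at 98.8 CPM against 864 CPM, and Krt18 at 50.7 CPM against 323 CPM. In the main cluster alone Cryab was at 269.8 CPM and Krt18 at 125 CPM, which gave log2 ratios of -1.21 and -0.82 in place of -2.41 and -1.74. Psca, a surface antigen, had no count in Proximal sub2 and 569 CPM in the comparison group, but 0 CPM in the main cluster alone, and it did not keep 1 sign over the 6 libraries.

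Pck1, G6pc, Slc34a3, Slc16a10 and Spp2 were moderately lower. Pck1, the rate-limiting enzyme of gluconeogenesis, was at 34120.2, 38095 and 24893 CPM in the vehicle libraries and 43166, 34608 and 16732 CPM in the furosemide libraries. The other cells had 26263 to 59526 CPM, and the ranges overlap. Library 6 was the lowest in both groups, and the ratio within libraries was even, -0.64 ± 0.11. G6pc, which releases free glucose, had a log2 ratio of -0.69 ± 0.21 at 11639 CPM. Slc34a3, the sodium-phosphate cotransporter NaPi-IIc, was at 2186 CPM against 3323 CPM, a log2 ratio of -0.60 ± 0.25. Slc16a10, an aromatic amino acid transporter, was at 756 CPM against 1559 CPM, and Spp2, a secreted phosphoprotein, at 20254 CPM against 35943 CPM. Slc2a2, the glucose transporter GLUT2 on the blood side, did not keep 1 sign over the 6 libraries, at 5017 CPM against 5425 CPM.

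Set beside the late proximal cells, the cluster held an uneven mixture of levels. Levels in this comparison are CPM of totals without Kap, since Kap alone took 42.0% or more of the counts in the Proximal s2/s3 class. Slc22a6 was at 1166 ± 261 CPM (SD, n = 6 libraries) in the main Proximal s1/s2 cluster, 5859 ± 896 CPM in Proximal sub2, 3313 ± 567 CPM in Prox sub3, 2951 ± 410.0 CPM in the main cluster of the Proximal s1/s2/s3 class, 10716 ± 1232 CPM in the cluster Proximal sub1 and 13058 ± 1363 CPM in the Proximal s2/s3 class. In order of level, neighbouring groups did not overlap over their libraries except Prox sub3 with the main Proximal s1/s2/s3 cluster and Proximal sub1 with Proximal s2/s3. The order of Cyp4b1 was 14489, 16587, 26078 and 41136 CPM in the main Proximal s1/s2 cluster, Prox sub3, the main Proximal s1/s2/s3 cluster and Proximal sub2, and 55715 and 55646 CPM in Proximal sub1 and Proximal s2/s3. The Cyp4b1 libraries of Proximal sub2 lay above all of the main Proximal s1/s2/s3 cluster and below all of Proximal sub1. Slc5a2 was at 29698 CPM in Proximal sub2, next to 30056 CPM in the main Proximal s1/s2/s3 cluster with overlapping libraries, and at 2644 CPM in Proximal s2/s3. Slc7a13, an amino acid carrier of S3, was at 186 ± 84.5 CPM in Proximal sub2 and at 18950.3 ± 3325 CPM in Proximal s2/s3.

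For 54 genes that differ at least 2-fold between the main Proximal s1/s2 cluster and the Proximal s2/s3 class, the place of Proximal sub2 between the 2 was expressed as a share of the log2 difference, 0 being the main cluster and 1 Proximal s2/s3. Proximal sub2 lay between them for 43 genes, outside on the main-cluster side for 10 and past Proximal s2/s3 for 1, with a median of 0.20. For the 26 genes higher in Proximal s2/s3 the median was 0.42, and for the 28 genes lower there it was 0.18. Aqp1 was at 0.85, Cyp4b1 at 0.78, Slc22a2 at 0.68, Slc22a6 at 0.66, Slc13a3 at 0.66, Slc27a2 at 0.63 and Cyp2e1 at 0.59. Slc7a13 was at 0.18, Slc5a2 at 0.09 and Slc22a7, an organic anion carrier of late proximal cells with no count in Proximal sub2, at -0.01. Of the listed S3 genes among the 54, Cyp4b1, Slc27a2 and Cyp2e1 thus lay past 0.5, as did Acy3 at 0.54. The others, Slc7a13, Slc22a7 and Slc5a1 (0.11), lay far lower, so these genes did not shift by 1 common proportion. Osgin1, Atf3, Cxcl1 and Adamts1, which are higher in Proximal s2/s3 than in the main cluster, were lower in Proximal sub2 than in both, at -1.32, -1.04, -0.95 and -0.58. The medians of the other clusters on the same scale were 0.10 for the main Proximal s1/s2/s3 cluster, 0.28 for Prox sub3 and 0.58 for Proximal sub1. A mixture of this kind was thus not particular to Proximal sub2. Proximal sub1 had Slc22a6 at 0.92, Cyp2e1 at 0.94, Cyp4b1 at 1.00 and Slc5a2 at 0.34. The main Proximal s1/s2/s3 cluster had Slc22a6 at 0.38, Cyp4b1 at 0.44 and Slc5a2 at 0.08. Within the class, Prox sub3 had Aqp1 at 0.53, Slc13a3 at 0.49, Slc22a6 at 0.43 and Slc5a2 at 0.10. Its Cyp2e1 was at 0.26, Cyp4b1 at 0.10 and Slc27a2 at -0.14. Fos was lower in Proximal sub2, at 4170.4 ± 1916 CPM, than in each of these groups, the lowest of the others being Proximal s2/s3 at 11777 ± 1673 CPM and the highest the main Proximal s1/s2/s3 cluster at 22151 ± 2739 CPM.

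**Figure D2:**
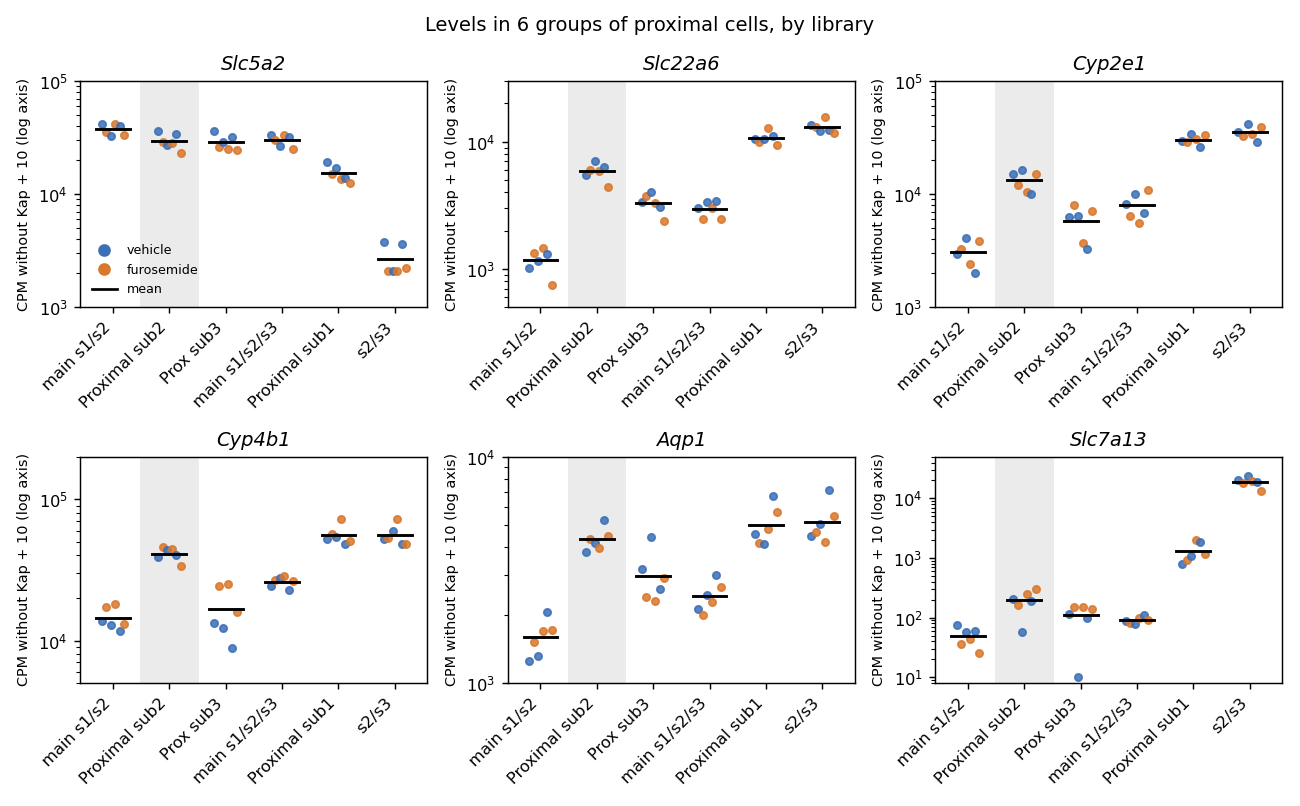
Level of 6 genes in 6 groups of proximal cells, as CPM of totals without Kap plus 10 on a log axis, with the Proximal sub2 cells shaded. Points are libraries (blue vehicle, orange furosemide) and lines are means of 6 libraries. Cyp4b1 and Aqp1 in Proximal sub2 lie near the Proximal s2/s3 class, Slc5a2 lies near the early groups, and Slc7a13 stays at 186 CPM on average against 18950.3 CPM in Proximal s2/s3.

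Single cells held Slc5a2 together with Slc22a6 or Cyp2e1, which are both higher in Proximal s2/s3 than in the main cluster. Of these, Cyp2e1 is on the S3 list used here, while Slc22a6 is on the S1 and S2 list. Each cell was thinned at random to 400 counts so that total counts were equal, which kept 300 of 335 cells of the cluster and 2120 of 2308 cells of the main cluster, shallower cells being left out. Since Kap takes 42.0% to 46.7% of the counts of Proximal s2/s3, thinned cells of that class hold fewer counts of other genes. Counts of both Slc5a2 and Slc22a6 were found in 80.6% ± 8.41 of Proximal sub2 cells (SD, n = 6 libraries), 29.4% ± 6.03 of main-cluster cells, 57.8% ± 9.45 of Prox sub3 cells and 26.8% ± 4.85 of Proximal s2/s3 cells. In thick ascending limb cells, which should lack both genes, the share was 0.0397% ± 0.0973. Without thinning it was 90.7% in Proximal sub2, 45.8% in the main cluster, 68.4% in Prox sub3, 40.8% in Proximal s2/s3 and 0.498% in the thick limb. Slc5a2 was found in 99.8% of thinned Proximal sub2 cells, so the pair share there is nearly that of Slc22a6 alone, 80.8%. The thick limb background for 1 gene was higher than for the pair. Slc22a6 alone was found in 1.05% ± 0.265 of thinned thick limb cells and Cyp2e1 alone in 3.08% ± 0.923. Without thinning these were 4.02% and 10.3%. Slc5a2 with Cyp2e1 was found in 91.7% ± 5.60 of Proximal sub2 cells, 47.9% ± 4.70 of main-cluster cells and 68.3% ± 16.3 of Prox sub3 cells. The lowest library of Proximal sub2 lay above the highest of the main cluster for both pairs. These shares were not taken for Proximal sub1 or for the main Proximal s1/s2/s3 cluster.

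The low level of immediate early genes was spread over many cells and differed between libraries. After thinning, 45.3% ± 16.0 of Proximal sub2 cells had a count of Fos, from 19.5% in library 2 to 61.7% in library 6, against 82.4% ± 4.67 of main-cluster cells. Jun was found in 29.5% ± 8.96 of Proximal sub2 cells against 58.0% ± 5.16, and Egr1 in 8.70% ± 6.63 against 35.2% ± 3.40. No count of Fos, Jun, Egr1 or Atf3 was seen in 43.6% ± 16.6 of Proximal sub2 cells, with libraries between 26.3% and 70.7%, in 13.7% ± 4.24 of main-cluster cells and in 18.7% ± 5.32 of Proximal s2/s3 cells. Unthinned, the shares were 31.1%, 10.9% and 9.86%. Handling of the cells during dissociation is a known inducer of these genes, and its part in the differences between clusters or libraries was not tested.

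**Figure D3:**
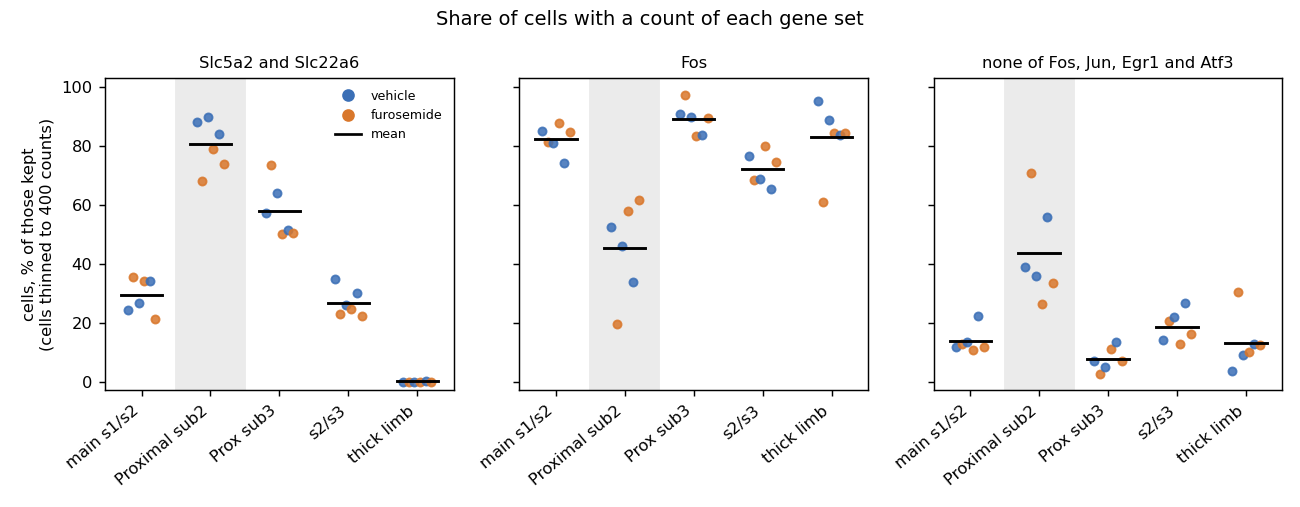
Percentage of cells, each thinned to 400 counts, with a count of both Slc5a2 and Slc22a6 (left), with a count of Fos (middle) and with no count of Fos, Jun, Egr1 or Atf3 (right), in 5 groups of cells. Points are libraries (blue vehicle, orange furosemide) and lines are means of 6 libraries. Of these 5 groups, Proximal sub2 (shaded) is highest on the left, at a mean of 80.6%, and lowest in the middle, at 45.3%. Proximal sub1 and the main Proximal s1/s2/s3 cluster are not shown.

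The number of these cells did not separate the treatments. Proximal sub2 made up 14.0%, 10.9% and 9.93% of the Proximal s1/s2 class in the vehicle libraries and 10.6%, 6.37% and 14.3% in the furosemide libraries. The ranges overlap, and library 4 was the lowest and library 6 the highest. The means were 11.6% ± 2.13 and 10.4% ± 3.95 (SD, n = 3 libraries each), a difference of -1.21 percentage points with p = 0.7 in the exact two-sided permutation test, in which 3 libraries against 3 cannot give less than 0.1. Without library 4 the difference was 0.81 points in the other direction. As shares of all proximal cells the means were 3.56% and 2.97% (exact p = 0.7), and of all cells 1.57% and 1.52% (exact p = 0.8). Adjusted over these 3 exact tests, each p was 0.8. The median counts per cell of the cluster were 625, 1018 and 643 under vehicle and 796, 588.5 and 636 under furosemide (exact permutation p = 0.6). The mean of these medians, furosemide minus vehicle, differed by -88.5 counts with all libraries and by 39.5 counts without library 3.

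No gene was called for furosemide against vehicle within the cluster. Of 164 genes tested in the counts summed by library, 0 (0.0%) had an adjusted p under 0.05 by edgeR's quasi-likelihood test with Benjamini-Hochberg adjustment, 8 had an unadjusted p under 0.05, and the smallest adjusted p was 0.605. The libraries of the 2 treatments did not overlap for 8 genes (4.88%). DESeq2 called 1 gene, Kap. Without library 2, edgeR called Fos and Tfrc with higher values under furosemide, and without library 5 it called Tmem252 with a higher and Kap and Hspa5 with a lower value. The labels do not say that the libraries came from separate animals, so these p-values measure the spread between libraries only. The values of the genes with the smallest p in each direction follow as normalised CPM (CPM scaled by TMM factors), and none of them passed the test.

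Kap had the smallest p among the genes with lower values under furosemide. Its normalised CPM was 44145, 48292 and 14443 in the vehicle libraries and 5300.0, 9849 and 9767 in the furosemide libraries, and the log2 difference was -2.11 ± 0.52 (SE) with an adjusted p of 0.605 (edgeR). The treatments did not overlap, yet 52.0% of the Kap counts of library 3 came from 1 cell, and libraries 1 and 3 stood far above the other 4. Without the cell with most Kap counts in each library the log2 difference was -1.81 (adjusted p = 0.535), and without library 5 it was -2.46 and was called (adjusted p = 3.71e-05). In all 866 cells of both Proximal sub clusters it was -0.06. Hspa5, a chaperone of the endoplasmic reticulum, was at 5295, 6411 and 2907 in the vehicle libraries and 2513, 2929.6 and 2547 in the furosemide libraries, where library 5 lay with the furosemide libraries, and its log2 difference was -0.88 ± 0.27 (SE) (adjusted p = 0.605). Egr1 differed by -0.93 ± 0.40 (SE) (adjusted p = 0.737) at 149 to 266 under furosemide and 298 to 504 under vehicle. Becn1, a gene of autophagy, differed by -0.56 ± 0.27 (SE) and Igfbp5, an insulin-like growth factor binding protein, by -0.61 ± 0.32 (SE), both with an adjusted p of 0.737.

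Adh1 led the genes with higher values under furosemide. It was at 5833, 5269 and 4081 in the vehicle libraries and 7340.4, 7106 and 8283 in the furosemide libraries, with no overlap and a log2 difference of 0.58 ± 0.20 (SE), and its adjusted p was 0.675 (edgeR). Slc22a8, a carrier of the drug itself, was at 14726, 12601 and 15114 in the vehicle libraries and 18861, 21006 and 16659 in the furosemide libraries. Its log2 difference was 0.41 ± 0.18 (SE) with an adjusted p of 0.737, and the lowest furosemide library lay just above the highest vehicle library. Slc22a6, the other furosemide carrier of the panel, had a log2 difference of -0.15 ± 0.21 (SE) (adjusted p = 0.993). Tfrc, the transferrin receptor, was at 336, 286 and 112 in the vehicle libraries and 299, 686 and 891 in the furosemide libraries, overlapping in library 2, with 1.34 ± 0.48 (SE) and 0.82 without library 6. Igfbp1 was at 185, 159 and 205 in the vehicle libraries and 274, 873 and 344 in the furosemide libraries, where library 4 with its 24 cells stood apart, with 1.26 ± 0.47 (SE) and 0.81 without that library, and both had an adjusted p of 0.675. Tmem252, a membrane protein, had 0.73 ± 0.30 (SE) (adjusted p = 0.737), with 0.42 without library 3 and 1.13 without library 5. Slc5a2 itself differed by -0.19 ± 0.17 (SE) (adjusted p = 0.968) and Gatm by -0.62 ± 0.42 (SE) (adjusted p = 0.845), and the Gatm value was -0.29 without library 6 and -0.98 without library 4.

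**Figure D4:**
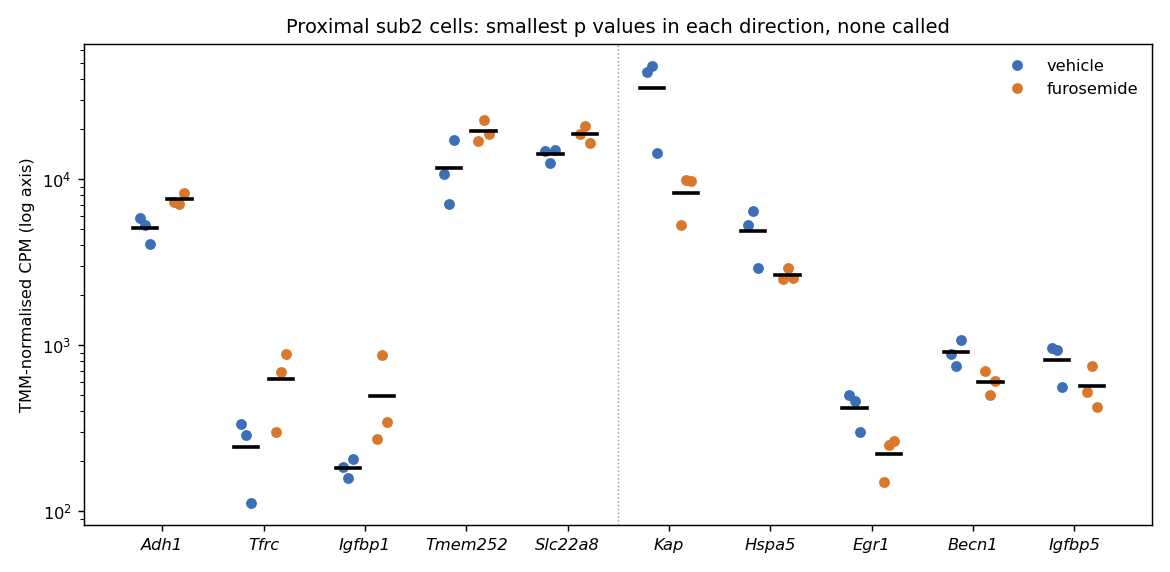
Level of the 10 genes with the smallest p in either direction in Proximal sub2, as TMM-normalised CPM on a log axis, with 3 vehicle (blue) and 3 furosemide (orange) libraries each and black lines at the means. To the left of the dotted line are the genes with higher values under furosemide and to the right those with lower values; no gene was called, and the Kap values under vehicle reach from 14443 to 48292.

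By group, the listed S1 and S2 genes had 10 members tested and the S3 genes 5, and none was called in either. The median log2 difference was -0.05 for the S1 and S2 genes and 0.09 for the S3 genes, beside -0.02 over the 164 genes. All 6 immediate early and heat shock genes were tested and 0 were called, with 3 above 0 and a median of -0.10. For the 6 organic transport genes tested it was 0.26, with 4 above 0, and for the 3 injury genes tested 0.05. The 8 genes of salt, water and phosphate handling had a median of -0.16, with 3 above 0.

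The treatment was set beside the rest of the class in the same libraries. In the other Proximal s1/s2 cells 0 of 268 genes (0.0%) were called, 18 had an unadjusted p under 0.05, and the smallest adjusted p was 0.138; DESeq2 called 2, Calb1 and Igfbp5. There Adh1 differed by 0.23 on the log2 scale, Slc22a8 by 0.25, Hspa5 by -0.73, Igfbp1 by 0.66, Igfbp5 by -0.51 and Kap by -0.34. Tfrc differed there by 0.46 and Tmem252 by 0.31, while Egr1, at 0.11, and Becn1, at 0.16, had the opposite sign to that in Proximal sub2. The difference of the effect between the 2 groups of cells, tested with library as a block, was called for 0 of 252 genes (0.0%), with 20 at an unadjusted p under 0.05. The smallest p-values among its positive values were those of H2-Aa, an MHC class II gene (3.36, adjusted p = 0.327 by edgeR), Tfrc (0.95) and Slc7a13 (1.66), and among its negative values those of Egr1 (-0.997), Cyp2a4, a cytochrome P450 (-0.77), and Becn1 (-0.68), the last 5 with an adjusted p of 0.611. H2-Aa rested on at most 7 counts in any library of the cluster. Leaving out 1 library gave 1 call in 3 cases, Fos without library 2, H2-Aa without library 3 and Kap without library 5. On simulated data the test of this difference recovered 36.8% of log2 differences of 1 and 68.3% of 2, so real differences can go uncalled. There 57 genes were changed by 1 and 60 by 2 of 254, which makes the adjusted threshold easier to pass. The 2 groups of cells were also drawn without a shared library effect. These shares therefore do not give the power in the real data.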

How the data were processed

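Single-cell counts of a 456-gene panel from 6 kidney libraries (3 vehicle, 3 furosemide) were used with the depositors' cell annotation, which gave class, cluster, library and treatment. The values are whole-number counts per gene and cell as deposited by the authors. The deposited table's name in the labels refers to removed doublets and equal cell numbers, and its libraries hold 3051 to 4439 cells. Bowtie2 2.2.9 is named in the submitters' processing notes; of the genome build, the counter and the use of molecular identifiers, none is given in the sources used here. Per the labels, kits for both whole-transcriptome and targeted libraries were used. Library numbers could not be tied to the replicate numbers of the sample titles.

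Counts were summed per library over the cells of each group. Levels are CPM, compared within libraries as log2 ratios with a pseudocount of 50 CPM. Treatment was tested with edgeR 4.0.16 (quasi-likelihood, TMM, filterByExpr, Benjamini-Hochberg, threshold 0.05) in R 4.3.3; DESeq2 1.42.0 and limma 3.58.1 were alternatives. With 5 counts at 300 CPM in the shallowest sum, low genes are imprecise. Data were simulated for 3 against 3 libraries with the totals of these cells' sums (167 genes). There the test recovered 78.4% of log2 changes of 1 and 100% of 2, and called 1.12% of unchanged genes. The simulation gave every gene the same fixed spread, so these shares do not hold for genes that varied more. Of the 167 genes, 37 were changed by 1 and 41 by 2, in either direction. With so many changed genes the adjusted threshold is easier to pass than where few genes change. The shares are therefore no measure of the power in the real data. Kap, at -2.11 ± 0.52 (SE), and Slc5a10, at 3.06 ± 1.47 (SE), were not called in the real data.

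The members and gene lists were chosen with earlier results of these data known. Genes were named by rule: the 15 highest and 15 lowest level ratios of 1 sign in 6 libraries at 300 CPM or more, the 5 smallest p in each direction for treatment, the 3 smallest in each direction for its difference, and Slc5a2 and Gatm. Other genes named, such as Timp3, Cxcl10 and the enzymes of mixed sign, were chosen after their values were seen.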

Additional observations from a re-analysis of the deposited data

How the results depend on the processing

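The count of genes of 1 sign in 6 of 6 libraries, 66 as reported, was 56 with the mean of single-cell shares, 48 after thinning, 59 against the main cluster alone, 66 with a pseudocount of 10 CPM, 65 with Kap left out of totals, and 67 to 79 when 1 library was left out; the settings on the pseudocount and on Kap were chosen after seeing the data. Of 351 alternative values of 32 level ratios, 347 moved by less than 1 SD over libraries and 4 by more (Slc22a6, Slc22a2 and Aqp1, the last in 2 settings), and none reversed.

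Furosemide calls in Proximal sub2, 0 as reported, were 1 with DESeq2 (Kap) and 0 to 3 when 1 library was left out: Fos and Tfrc without library 2, and Kap, Hspa5 and Tmem252 without library 5. They were 0 under the other settings tried, of which leaving out shared cell numbers and leaving out the cell with most Kap were chosen after seeing the data. Leaving out cells with 2 or more markers of another type kept only 68 of 335 cells and 70 genes. The same rule would keep 428 of the 2631 other cells of the class. The lists of other types hold genes present throughout the class, such as Cldn10, at 5004 CPM in Proximal sub2 and 4560 CPM in the other cells. The rule is therefore no measure of mixed cells. In the other cells of the class the 0 calls became 2 with DESeq2 and stayed 0 to 0 when 1 library was left out. For the difference of the effect the leave-one-out range was 0 to 1 (Fos without library 2, H2-Aa without library 3, Kap without library 5). Igfbp1 reversed to -0.10 in all cells of both Proximal sub clusters. The share difference ran from -3.14 to 0.81 points and the depth difference from -157.0 to 39.5 counts when 1 library was left out, reversing without library 4 and without library 3. The cause of these changes was not tested. No paired analysis was possible because the library numbers of the files carry no link to the replicate numbers of the sample titles.

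Depth limits the treatment test in Proximal sub2 to 24 to 94 cells and 16586 to 68075 counts per library. Counting error was not separated from other differences between libraries, and CPM of a panel are relative to the other panel genes.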

Other observations

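Of the listed insulin-like growth factor genes, Igf1r and Igfbp4 were higher in Proximal sub2 than in the rest of the class in 6 of 6 libraries and Igfbp1 and Igfbp5 lower, where 18.3% and 24.8% of all 153 genes were higher and lower. Nothing particular to the list is read from this. Igf1r had a log2 ratio of 0.52 ± 0.21 (SD), Igfbp4 0.10 ± 0.08, Igfbp1 -1.03 ± 0.49 and Igfbp5 -0.42 ± 0.21. Ccnd1, a cyclin of the cell cycle, had a mixed sign, with 0.25 ± 0.35. Id3, an inhibitor of differentiation factors, had -1.44 ± 0.32 at 2487 CPM, and Hbegf, a ligand of the epidermal growth factor receptor, -0.74 ± 0.53.

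Among genes of cell protection, Sod3, the extracellular superoxide dismutase, was slightly higher at 21750.0 ± 1243 CPM against 19057 ± 2595 CPM, and Tmbim6, an inhibitor of cell death at the endoplasmic reticulum, at 57414 ± 5059 CPM against 47364 ± 4418 CPM. Atf4, a transcription factor of the integrated stress response, was lower at 1830.3 ± 443 CPM against 3103 ± 342 CPM. Trpv4, a cation channel that senses cell swelling, had a log2 ratio of 0.47 ± 0.29, and Atp1b1, a subunit of the sodium pump, 0.16 ± 0.15. These are levels of a cluster drawn from the same genes and carry no test. The genes in this section were chosen after their values were seen.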
